A study of Mus musculus with 78 samples.

Results

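The genes described here are 9 genes used as markers of neural progenitors, Pax6, Sox1, Neurog2, Olig2, Hes5, Nes, Msi1, Fabp7 and Dcx, picked by name from the 54446 genes of the RNA-seq tables and the 54435 genes of the nascent RNA table. Each symbol matched 1 gene in every table. They were followed in mouse embryonic stem cells (mESCs) of the V6.5 strain whose TRIM28, a corepressor that recruits heterochromatin to endogenous retroviruses (ERVs), carries an FKBP tag. The tag lets the small molecule dTAG-13 send the protein to degradation. The tagged line was grown from picked colonies, so it stands for 1 clone, and it was cultured with serum and LIF on irradiated feeder fibroblasts that were depleted before collection.

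RNA-seq of the tagged line came from 3 samples each in DMSO, the vehicle, and after 2, 6, 24 and 96 h of 500 nM dTAG-13. A tagged line with shRNAs against the ERV families IAP, MMERVK10C, MMERVK9C and MMETn, the shERV line, gave 3 samples each in DMSO, in dTAG-13 and in dTAG-13 with doxycycline (Dox, which switches the shRNAs on). For the shERV line the protocol text gives 2 ug/mL Dox beforehand to all 3 groups, while the treatment labels name Dox for 1 of them, and the treatment labels were followed. Untreated parental V6.5 mESCs, without the tag, and neural progenitor cells (NPCs) of the same strain in DMSO gave 3 samples each. The labels do not say whether the NPCs carry the tag. The shERV libraries were made from total RNA after removal of rRNA and the other RNA-seq libraries from polyadenylated RNA, so line and library type cannot be told apart wherever the shERV line is set beside the time course. Nascent RNA (TT-SLAM-seq, RNA labelled with 4-thiouridine for 15 min) was measured in 3 samples each in DMSO and after 2, 6 and 24 h, and ChIP-seq peaks of H3K27Ac and H3K9me3 (3 samples a group), RNAPII and MED23 (2 samples a group) in DMSO and after 24 h. The DMSO groups of the time course and of TT-SLAM-seq are labelled 0 h, and neither has a DMSO group labelled with a later time. Time in culture therefore cannot be told apart from dTAG-13 in these comparisons. The DMSO group of the shERV line is labelled 24 h. The study calls the TT-SLAM-seq, time-course and shERV replicates biological, while the labels only number the samples and do not say whether they were separate cultures, so p-values measure the spread between these samples.

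Neural progenitors are the dividing cells of the early neural tube that give rise to neurons and glia. Their identity rests on transcription factors such as SOX1 and PAX6, and Notch signalling, through its target HES5, keeps part of them from differentiating while proneural factors such as NEUROG2 drive neurogenesis. Naive mESCs are kept from this fate by the pluripotency network and by LIF, and SOX1 is among the earliest markers to appear when they leave it. In bulk RNA a lower or higher value of such a marker can come from fewer or more cells that express it or from less or more RNA per cell, and these cannot be told apart.

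RNA-seq depth, taken from the mean read coverage and set against the median library, ran from 0.745 to 1.71 except in replicate 1 at 24 h, which reached 0.334. This library is the shallowest, and values that rest on it are given without it where they move. Trim28 mRNA was present in every group. It had a mean of 623.8 TPM (transcript level scaled for length and depth) in DMSO, 372.1 TPM at 24 h and 191.7 TPM at 96 h, and the degron acts on the protein, so this mRNA does not check the depletion. The NPC label was checked against pluripotency genes, whose summed level was 7.51 to 8.08 TPM in NPCs, with Pou5f1 and Zfp42 at 0 in all 3 libraries, against 4537 to 4927 TPM in tagged mESCs in DMSO.

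All 9 genes lie on the GRCm38 assembly as the tables place them. Pax6 spans chr2:105668900-105697364, Sox1 chr8:12395295-12400126 as a single exon, Neurog2 chr3:127633135-127635631, Olig2 chr16:91225457-91228677 and Hes5 chr4:154960923-154962371. Nes spans chr3:87971078-87980451, Msi1 chr5:115429599-115455698, Fabp7 chr10:57784881-57788450 and Dcx, the only one on the minus strand, chrX:143855842-143933311. Hes5 shares 433 exon bases with Gm20421 on the opposite strand, which reached 4.61 TPM in NPCs, and reads of the pair cannot be told apart if strand was not used in counting.

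The promoters of these genes differ in CpG content, and 5 of them are shown because they span the range from the densest to the sparsest and because MED23 peaks, described further on, were listed at the first 3 and not at the last 2. The sequence of each was taken from the RefSeq promoter table of GRCm38.p6, in which 8 of the 9 genes were found and Msi1 was not, and it is cut to the bases before the gene start. Capitals in Hes5 mark matches to the RBPJ motif GTGGGAA or its reverse complement TTCCCAC, RBPJ being the DNA-binding partner of Notch, and capitals in the other promoters mark CpG dinucleotides. Hes5 (chr4:154960673-154960922, plus strand), Olig2 (chr16:91225300-91225456, plus strand), Neurog2 (chr3:127632886-127633134, plus strand), Fabp7 (chr10:57784673-57784880, plus strand) and Dcx (chrX:143933312-143933469, minus strand) read, 5′ to 3′, as follows.
Hes5: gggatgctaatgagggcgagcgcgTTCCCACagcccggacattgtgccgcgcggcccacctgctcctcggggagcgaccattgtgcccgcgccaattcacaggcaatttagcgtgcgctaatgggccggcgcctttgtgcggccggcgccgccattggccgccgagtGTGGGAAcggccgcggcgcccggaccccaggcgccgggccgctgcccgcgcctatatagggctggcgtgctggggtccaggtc
Olig2: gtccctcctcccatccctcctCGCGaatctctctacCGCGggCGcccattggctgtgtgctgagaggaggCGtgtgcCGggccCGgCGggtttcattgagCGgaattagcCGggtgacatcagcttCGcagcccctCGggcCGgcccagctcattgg
Neurog2: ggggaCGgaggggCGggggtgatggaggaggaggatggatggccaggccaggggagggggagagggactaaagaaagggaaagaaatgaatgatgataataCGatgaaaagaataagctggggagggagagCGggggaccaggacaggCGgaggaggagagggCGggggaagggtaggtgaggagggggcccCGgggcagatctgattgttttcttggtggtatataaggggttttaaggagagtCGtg
Fabp7: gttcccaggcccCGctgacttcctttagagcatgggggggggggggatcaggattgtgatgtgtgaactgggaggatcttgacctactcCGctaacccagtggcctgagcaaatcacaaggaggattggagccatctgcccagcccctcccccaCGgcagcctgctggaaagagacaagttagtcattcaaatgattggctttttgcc
Dcx: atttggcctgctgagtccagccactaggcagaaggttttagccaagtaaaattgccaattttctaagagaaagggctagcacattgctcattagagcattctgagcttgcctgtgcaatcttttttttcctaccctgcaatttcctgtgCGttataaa

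Over the full 250 bases before the RefSeq start, Hes5 held 32 CpG dinucleotides, Sox1 29 and Olig2 22, against a median of 6 and an upper quartile of 16 over 32851 promoters. Pax6 and Nes held 15 each, Neurog2 8, Fabp7 4 and Dcx 3. The RefSeq start lies downstream of the gene start given above by 224 bases in Sox1, 93 in Olig2, 92 in Dcx and 42 in Fabp7. That many of the 250 bases lie inside these genes as placed above. The share of all promoters with fewer CpG was 95.4% for Hes5, 93.2% for Sox1, 37.8% for Fabp7 and 29.0% for Dcx. Hes5 was the only one of the 8 with the RBPJ motif and held 2 copies, where 5.42% of all promoters held at least 1 and 0.161% held 2 or more. The letters TATAAA or TTTATA were found in the promoters of Olig2 and Dcx, as in 12.4% of all promoters. The match of Olig2 is not within the bases printed above.

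In NPCs all 9 genes were expressed, and they fell into 2 kinds when mESCs were set beside them. Pax6, Sox1, Olig2, Nes and Msi1 had a measurable level in mESCs, with the lowest of 27 mESC libraries between 0.943 TPM (Pax6) and 15.1 TPM (Msi1). Neurog2, Hes5, Fabp7 and Dcx did not reach 1 TPM in any of the 27 mESC libraries, whatever the line or treatment. Their highest mESC values were 0.143 TPM (Neurog2), 0.594 TPM (Hes5), 0.592 TPM (Fabp7) and 0.146 TPM (Dcx).

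Fabp7, a fatty acid-binding protein of radial glia, was the highest of the 9 in NPCs, at 2613, 2609 and 2646 TPM, and ranked 26 of the 27365 genes with a value there. In tagged mESCs in DMSO it stood at 0.233, 0.169 and 0.210 TPM, and the groups lie far apart. Msi1, an RNA-binding translational regulator, came next in NPCs at 358.9, 380.2 and 390.4 TPM, followed by Nes, the intermediate filament nestin, at 258.4, 253.8 and 271.6 TPM. In tagged mESCs these 2 genes were the highest of the set but in the other order, Nes at 52.2, 52.7 and 54.2 TPM and Msi1 at 21.1, 21.1 and 21.1 TPM.

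Sox1, the SOXB1 factor of the neural plate, had 186.9, 175.4 and 174.5 TPM in NPCs and 5.56, 5.31 and 4.97 TPM in tagged mESCs. Pax6, a paired-box factor of dorsal neural progenitors, had 130.2, 134.8 and 135.4 TPM against 5.19, 5.10 and 4.78 TPM. These 2 factors overlapped each other in tagged mESCs, and in NPCs Pax6 overlapped Hes5, a Notch-induced repressor, which had 124.7, 137.1 and 149.8 TPM. Dcx, a microtubule-binding protein of migrating young neurons, had 112.7, 115.7 and 118.8 TPM in NPCs, and Neurog2, a proneural bHLH factor, 42.4, 45.1 and 42.0 TPM. Olig2, a bHLH factor of ventral progenitors and the oligodendrocyte lineage, was the lowest of the 9 in NPCs at 23.0, 25.3 and 25.2 TPM, and in tagged mESCs it stood at 2.697, 3.01 and 2.93 TPM. In both cell types the neighbours in this order did not overlap, except Hes5 with Pax6 in NPCs and, in tagged mESCs, Sox1 with Pax6 and each of Fabp7, Hes5, Neurog2 and Dcx with the next.

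**Figure D1:**
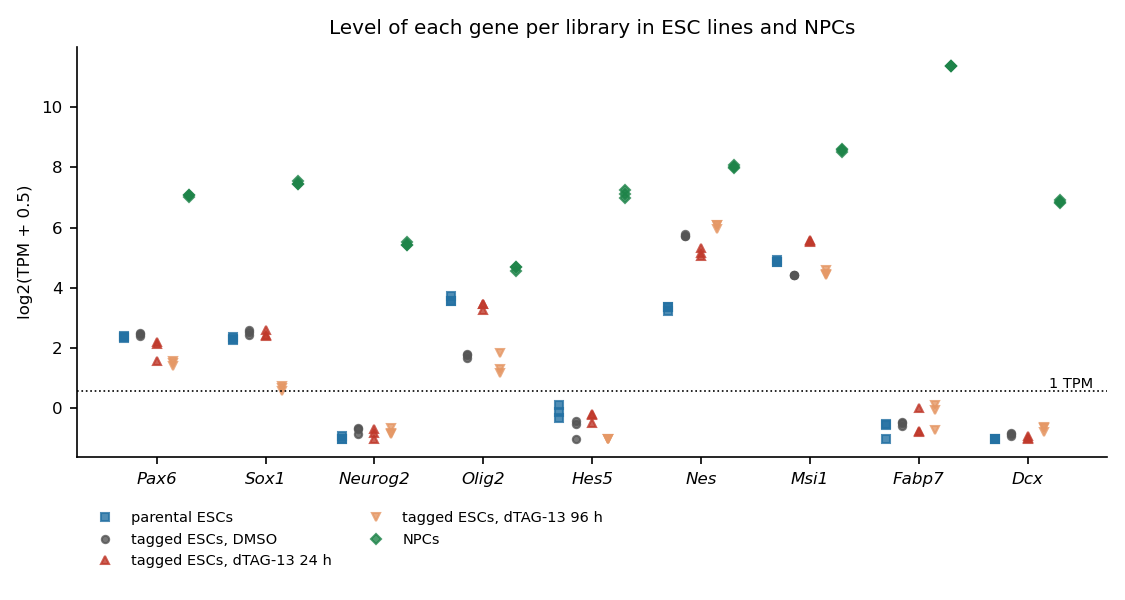
Level of each of the 9 genes on the log2(TPM + 0.5) scale, 1 symbol per library (3 per group), in parental mESCs, tagged mESCs in DMSO and after 24 and 96 h of dTAG-13, and NPCs; the dotted line marks 1 TPM. Neurog2, Hes5, Fabp7 and Dcx lie below the line in all mESC groups, and all 9 genes are highest in NPCs.

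Against tagged mESCs all 9 genes were called higher in NPCs (adjusted p below 0.05 and more than 2-fold, limma on log2(TPM + 0.5) over 17458 genes), where 25.9% of all genes tested were. The log2 differences ran from 2.29 for Nes and 2.89 for Olig2 through 4.12 for Msi1, 4.60 for Pax6 and 4.96 for Sox1 to 11.87 for Fabp7, and the largest adjusted p by limma, that of Olig2, was 1.22e-10. Neurog2 (6.17), Hes5 (7.74), Dcx (7.72) and Fabp7 entered this test only through their NPC values, so they had to differ. Against parental mESCs all 9 were higher too, where 30.3% of genes were, and the smallest difference was that of Olig2, at 1.03 (SE 0.068, adjusted p 2.37e-07 by limma). With each library centred on its median, which takes off the 0.59 between library medians, Olig2 differed between NPCs and parental mESCs by 0.43, and the median difference over all genes was 0.22.

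The tagged line in DMSO and its untagged parent differed most in Nes and Olig2. Nes had 8.99, 9.70 and 9.79 TPM in parental mESCs, far below the 52.2 to 54.2 TPM of the tagged line. Olig2 went the other way, with 11.4, 12.8 and 11.2 TPM in parental mESCs against at most 3.01 TPM in the tagged line. The log2 differences, parental minus tagged, were -2.42 for Nes (SE 0.039, adjusted p 4.36e-10 by limma) and 1.86 for Olig2 (SE 0.068, adjusted p 2.72e-08 by limma). They were the only 2 of the 9 called, 1 in each direction, where 2.25% of genes were called higher and 9.15% lower.

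Msi1 was also higher in parental mESCs, at 28.8, 28.7 and 30.0 TPM (0.46, adjusted p 2.44e-06 by limma), and Sox1 lower, at 4.33, 4.67 and 4.49 TPM (-0.21, adjusted p 0.00526 by limma). Pax6, at 4.52, 4.64 and 4.75 TPM in parental mESCs, missed the threshold (-0.10, adjusted p 0.0584 by limma), and passed it without replicate 3 of the tagged line (adjusted p 0.0178). With libraries centred, which takes off the -0.19 between library medians, the Sox1 difference was -0.02 (adjusted p 0.821), and the median difference over all genes was -0.09. Dcx was listed at 0 in all 3 parental libraries. Hes5 and Neurog2 entered this fit only through their NPC values, being under 1 TPM in all mESC libraries. Hes5 passed the test at 0.54 (adjusted p 0.0181 by limma) with all its mESC values under 0.6 TPM, and lost it without parental replicate 2 (adjusted p 0.0660). Neurog2 passed at -0.24 (adjusted p 0.0268 by limma), with values no higher than 0.141 TPM, and lost it in 8 of 12 alternatives, among them leaving out tagged replicate 1 (0.0839) or 3 (0.0642) and parental replicate 1 (0.0655) or 3 (0.0700). Feeder fibroblast genes moved with this comparison: their summed level was 105.5 to 108.0 TPM in parental libraries against 22.4 to 23.0 TPM in the tagged line. Of these genes 6 of 9 tested were called higher, where 2.25% of all genes were, and Lum was at 0 in the tagged line. The part of feeder genes in these differences was not tested. Pluripotency genes moved as well, with a summed level of 6555 to 6650 TPM in parental libraries against 4537 to 4927 TPM. Of these 4 of 10 were called higher, where 2.25% of all genes were, none was at 0, and their part was not tested.

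In the time course of TRIM28 degradation 5 of the 9 genes, Pax6, Sox1, Olig2, Nes and Msi1, passed the filter of 1 TPM in at least 3 libraries, and the other 4 were too low to test. Olig2 and Msi1 peaked at 24 h and were back near their DMSO level at 96 h. Nes dipped at 24 h and had its highest mean at 96 h, while Pax6 and Sox1 had their highest mean at 6 h and their lowest at 96 h.

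**Figure D2:**
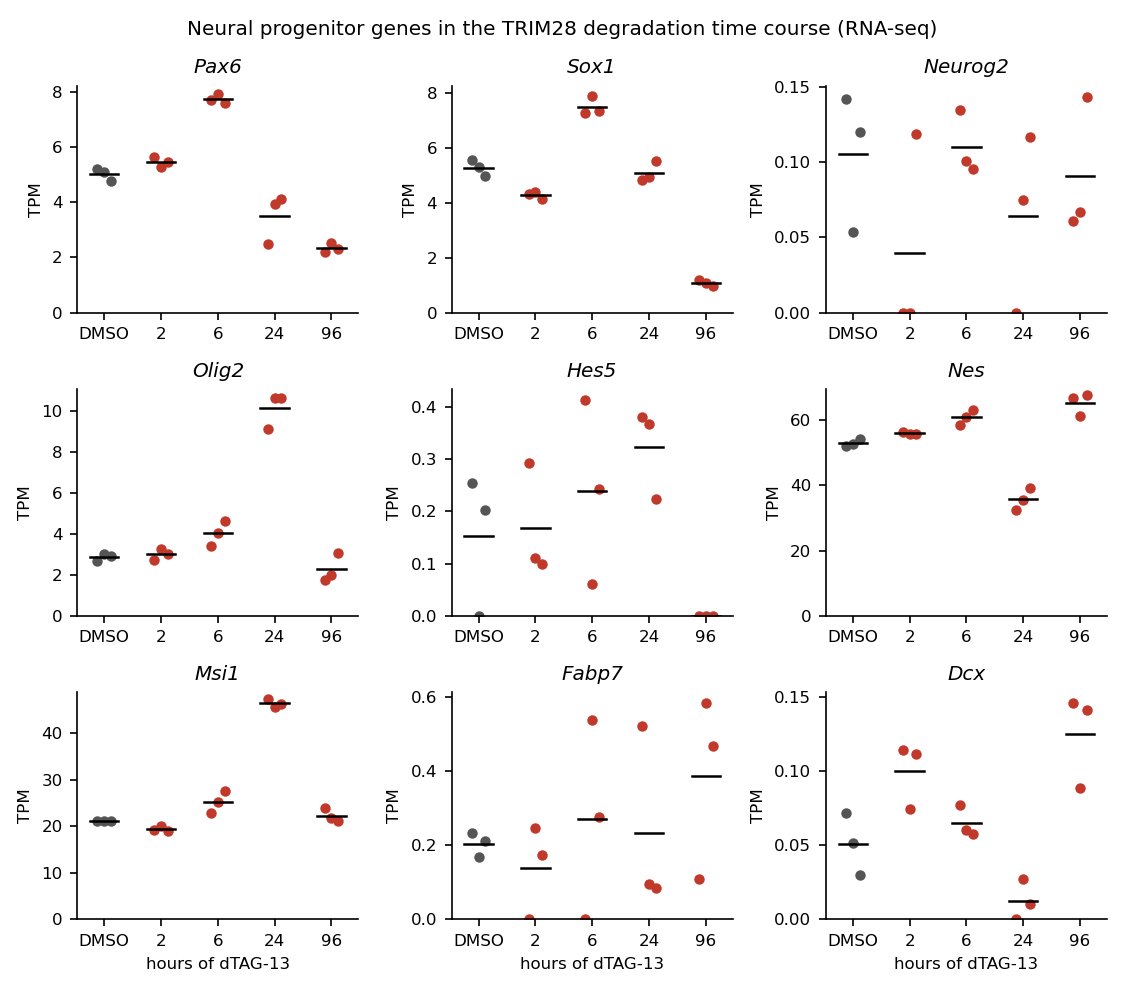
TPM of each of the 9 genes in DMSO and after 2, 6, 24 and 96 h of dTAG-13, 1 point per library with a bar at the mean of 3. Olig2 and Msi1 are highest at 24 h in all 3 libraries, the means of Pax6 and Sox1 are highest at 6 h and lowest at 96 h, and Neurog2, Hes5, Fabp7 and Dcx stay under 0.6 TPM at every time.

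At 2 h Sox1 was the only 1 of the 5 to pass the test, where 15.3% of the 17922 genes tested did. Its values were 4.32, 4.39 and 4.14 TPM, all below the 4.97 to 5.56 TPM of DMSO. The log2 difference was -0.27 (SE 0.079, adjusted p 0.0333 by limma). It no longer passed when DMSO replicate 1 (adjusted p 0.129) or 2 (0.0934) or 2 h replicate 1 (0.0746), 2 (0.0611) or 3 (0.107) was left out.

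At 6 h all 5 genes were higher than in DMSO and passed the test, where 18.4% of genes did so in that direction, and none reached 2-fold, where 0.965% of genes did. Pax6 rose to 7.70, 7.92 and 7.60 TPM, above every DMSO library (0.58, SE 0.126, adjusted p 0.00346 by limma). Sox1 rose to 7.28, 7.91 and 7.33 TPM (0.47, SE 0.079, adjusted p 0.000645 by limma). Msi1 had 22.9, 25.3 and 27.6 TPM (0.25, adjusted p 0.00610 by limma), again with no overlap, as for all 5 genes and for 45.1% of the genes tested.

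The rises of Nes, to 58.5, 60.9 and 63.2 TPM (0.20, adjusted p 0.0184 by limma), and of Olig2, to 3.42, 4.06 and 4.61 TPM (0.42, adjusted p 0.0436 by limma), were less firm. With libraries centred, Nes stood at 0.11 (adjusted p 0.165) and Olig2 at 0.32 (adjusted p 0.104). Nes no longer passed without DMSO replicate 1 (0.0605) or 2 (0.0536) or 6 h replicate 3 (0.0740). Olig2 no longer passed without DMSO replicate 1 (0.124), 2 (0.0758) or 3 (0.0755) or 6 h replicate 2 (0.0893) or 3 (0.163), and with no filter on low values (0.0999).

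At 24 h the 5 genes split. Olig2 rose to 9.13, 10.6 and 10.6 TPM, above the DMSO maximum of 3.01 TPM in every library and to 41.2% of its NPC mean. The log2 difference was 1.65 (SE 0.148, adjusted p 2.55e-07 by limma). Msi1 rose from 21.1 TPM in all 3 DMSO libraries to 47.4, 45.7 and 46.3 TPM, 12.3% of its NPC mean, a difference of 1.12 (SE 0.060, adjusted p 1.86e-09 by limma). These 2 of the 5 were called higher, where 10.1% of genes were.

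In the other direction Nes fell to 32.6, 35.5 and 39.3 TPM, below all DMSO libraries, by 0.56 on the log2 scale (SE 0.058, adjusted p 1.03e-06 by limma). Pax6 stood at 2.504, 3.93 and 4.11 TPM, also below all DMSO libraries, a difference of -0.48 (SE 0.126, adjusted p 0.00361 by limma). Its lowest value is that of the shallow replicate 1, and without that library the difference was -0.29 (adjusted p 0.00401). Sox1, at 4.82, 4.94 and 5.52 TPM, overlapped DMSO (-0.05, adjusted p 0.613 by limma). Nes and Pax6 passed the test without reaching 2-fold, where 25.0% of genes passed as lower.

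Between DMSO and 24 h the median level within a library differed by 0.29, while the median log2 difference over the genes tested was 0.13. With each library centred on its own median, Olig2 was higher by 1.36 and Msi1 by 0.83, which is under 2-fold, Nes lower at -0.85 and Pax6 lower at -0.77. Sox1, which did not pass before, stood at -0.34 (adjusted p 0.00162 by limma). The pluripotency genes moved in the same libraries: their summed level went from 4537 to 4927 TPM in DMSO to 3055 to 3352 TPM. Of these genes 3 of 10 were called lower, where 2.01% of all genes were, and their part in these values was not tested.

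At 96 h Sox1 fell to 1.17, 1.08 and 0.978 TPM, far below every DMSO library. The difference was -1.87 (SE 0.079, adjusted p 1.86e-11 by limma), and Sox1 was the only 1 of the 5 called lower, where 12.4% of genes were. Pax6 fell to 2.18, 2.51 and 2.32 TPM, below all DMSO libraries (-0.96, SE 0.126, adjusted p 6.15e-06 by limma). Pax6 lay just short of 2-fold and passed it without 96 h replicate 2, at -1.004.

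Nes, at 66.7, 61.2 and 67.7 TPM, was above all DMSO libraries (0.30, adjusted p 0.000304 by limma). Msi1, at 23.9, 21.7 and 21.1 TPM, overlapped DMSO (0.07, adjusted p 0.287 by limma). Olig2, at 1.77, 1.99 and 3.05 TPM, overlapped DMSO through replicate 3 (-0.31, adjusted p 0.0641 by limma), and without that library it was lower at -0.51 (adjusted p 0.00169). The library medians differed by 0.28 at 96 h, while the median difference over all genes was 0.05. With libraries centred on their medians, Nes stood at 0.02 (adjusted p 0.773), Olig2 at -0.59 (adjusted p 0.00208) and Msi1, with its sign turned, at -0.21 (adjusted p 0.00494 by limma).

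From 24 h to 96 h 3 of the 5 were called lower, where 16.5% of genes were. The log2 differences were -1.96 for Olig2 (SE 0.148, adjusted p 1.54e-08 by limma), -1.83 for Sox1 (adjusted p 3.52e-11) and -1.05 for Msi1 (adjusted p 7.36e-10). Pax6 went down by a smaller amount (-0.48, adjusted p 0.00319 by limma, and -0.67 without 24 h replicate 1). Nes rose again, by 0.86 (SE 0.058, adjusted p 4.74e-09 by limma), and its groups did not overlap. The library medians differed by -0.01 between these times.

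Marker genes of other cell types also moved at 96 h. Pluripotency genes had a summed level of 402.5 to 469.4 TPM, with 10 of 10 called lower, where 12.4% of all genes were. Feeder fibroblast genes had 290.0 to 315.0 TPM, with 7 of 9 tested called higher and none of the 10 at 0 in all 3 libraries. Endoderm genes had 80.1 to 85.0 TPM against 16.8 to 21.2 TPM in DMSO, with 4 of 7 called higher and Afp and Ttr at 0. Over all genes 20.3% were called higher. The part of these lists in the values of the 9 genes at 96 h was not tested. The summed level of the 9 genes themselves stayed between 89.3 and 96.0 TPM at 96 h, near the 87.4 to 88.5 TPM of DMSO and far from the 3850 to 3954 TPM of NPCs.

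Neurog2, Hes5, Fabp7 and Dcx remained near 0 throughout the time course. Hes5 was listed at 0 in all 3 libraries at 96 h, after 0.379, 0.366 and 0.223 TPM at 24 h. Dcx had 0, 0.027 and 0.010 TPM at 24 h and 0.146, 0.088 and 0.141 TPM at 96 h. The 96 h values of Dcx lie above the 0.072, 0.051 and 0.029 TPM of DMSO, and with no filter on low values Dcx passed at 96 h (0.18, adjusted p 0.00372 by limma). Fabp7 ranged from 0 to 0.583 TPM and Neurog2 from 0 to 0.143 TPM over the 15 libraries, and each group after dTAG-13 overlapped DMSO. With no filter none of Fabp7, Neurog2 and Hes5 passed against DMSO at any time, and the tables hold no read numbers from which a floor could be given.

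TT-SLAM-seq asked whether synthesis moved with the RNA level. The deposited values are FPKM, fragments scaled to gene length and library total, and a match of low values to whole reads showed that the length used is the whole gene with its introns, so FPKM of genes with long introns, such as Pax6, Msi1 and Dcx, are low and levels are not compared between genes here. Whole reads could be recovered (98.3% to 99.4% of low values per library lay within 0.1 of a whole number), with scaling totals from 6480647 to 24259812 reads a library. Sox1, Olig2, Nes and Msi1 passed the filter of 0.5 FPKM in 3 libraries.

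Nascent Sox1 was the first to pass the test. It had 0.426, 0.296 and 0.381 FPKM in DMSO, from 15, 18 and 21 reads. At 2 h it had 0.749, 0.641 and 0.837 FPKM, from 59, 44 and 57 reads, without overlap. Olig2 (0.438, 0.394 and 0.529 FPKM) and Nes (1.91, 2.49 and 2.01 FPKM) were also above all their DMSO values at 2 h. That made 3 of the 4 without overlap, where 25.4% of genes had none. Olig2 (0.38) and Nes (0.33) did not pass the test. Sox1 was the only 1 of the 4 to pass it at 2 h (0.52, SE 0.092, adjusted p 0.0215 by limma), where 1.58% of 13357 genes passed as higher. The pseudocount understates this change too, which was 1.07 with voom on recovered reads. The mRNA of Sox1 was lower at the same time, and higher only at 6 h, when the nascent value was 0.728, 0.691 and 0.574 FPKM (0.43, adjusted p 0.0250 by limma) and 7.82% of genes passed as higher.

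Both nascent results of Sox1 are near the threshold. At 2 h it no longer passed without DMSO replicate 2 (adjusted p 0.0798) or 2 h replicate 1 (0.0897) or 2 (0.0508). At 6 h it no longer passed without DMSO replicate 1 (0.0543) or 2 (0.0878) or 6 h replicate 1 (0.0999) or 2 (0.0600), with libraries centred (0.0663) and with voom on recovered reads (0.0923). At 24 h nascent Sox1 was 0.478, 0.434 and 0.575 FPKM (0.20, adjusted p 0.118 by limma).

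Olig2 and Msi1 rose in nascent RNA at 24 h, as their mRNA did. Olig2 went from 0.213, 0.296 and 0.191 FPKM in DMSO to 0.934, 0.968 and 0.575 FPKM, from 5, 12 and 7 reads to 73, 64 and 12 reads. The difference was 0.84 on the log2(FPKM + 0.5) scale (SE 0.154, adjusted p 0.00215 by limma), which understates the change of so low a value. Msi1 went from 0.320, 0.423 and 0.420 FPKM to 0.891, 1.18 and 0.751 FPKM, on 61 to 633 reads a library, a difference of 0.69 (SE 0.125, adjusted p 0.00206 by limma). At 2 h and 6 h neither gene passed the test (Olig2 0.38 and 0.34, Msi1 -0.17 and 0.02).

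Nes parted ways with its mRNA. Nascent Nes had 1.58, 1.46 and 1.75 FPKM in DMSO and 2.33, 2.48 and 2.83 FPKM at 24 h, above all DMSO libraries, while its mRNA was below them. The nascent difference was 0.54 (SE 0.180, adjusted p 0.0400 by limma). This result is weak, since it no longer passed in 10 of 12 alternatives, including each one that left out a library of DMSO (adjusted p 0.0893, 0.11 and 0.0553 for replicates 1 to 3) or of 24 h (0.0620, 0.0882 and 0.115) and the one with a replicate block (0.0542). In TT-SLAM-seq the library medians differed by 0.24 at 24 h (0.21 in the median difference over all genes), and with libraries centred Nes stood at 0.29 (adjusted p 0.200), Olig2 at 0.60 (adjusted p 0.0242) and Msi1 at 0.45 (adjusted p 0.0196 by limma). In all, 3 of the 4 genes tested passed as higher at 24 h, where 32.3% of genes did, and none of the 4 was called at more than 2-fold, where 3.40% of genes were. This count rests on the pseudocount, since with 0.1 in place of 0.5 Olig2 (1.46) and Msi1 (1.08) were called higher.

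**Figure D3:**
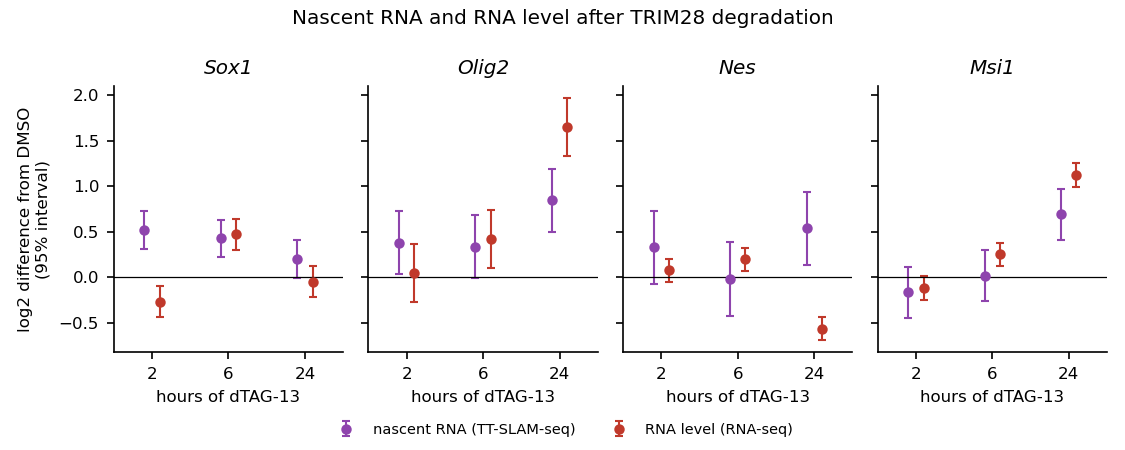
Log2 difference from DMSO, with its 95% interval, of nascent RNA (TT-SLAM-seq, log2(FPKM + 0.5)) and of RNA level (RNA-seq, log2(TPM + 0.5)) after 2, 6 and 24 h of dTAG-13 for the 4 genes tested in both, from 3 libraries a group. Sox1 parts at 2 h (nascent 0.52, RNA level -0.27) and Nes at 24 h (nascent 0.54, RNA level -0.56), while Olig2 and Msi1 rise in both at 24 h.

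Pax6 missed the nascent filter with 24 to 147 reads a library. Its values were 0.183, 0.176 and 0.142 FPKM in DMSO, 0.262, 0.242 and 0.311 FPKM at 6 h and 0.161, 0.120 and 0.130 FPKM at 24 h. The 6 h values lie above all DMSO values, and with no filter on low values the difference was 0.21 (adjusted p 0.0863 by limma). Of the silent genes, Fabp7 had no read in any of the 12 libraries, where 3 reads would have been worth from 0.0346 to 0.130 FPKM, and Hes5 had at most 2 reads, Neurog2 at most 3 and Dcx at most 7.

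In the shERV line the comparison asked whether the response to dTAG-13 is kept when ERV transcripts are knocked down. By the treatment labels no group had Dox without dTAG-13. An effect of Dox or of the shRNAs by themselves therefore cannot be told apart from a changed response to dTAG-13. The same 5 genes passed the filter. With dTAG-13 Olig2 had 5.90, 6.65 and 6.21 TPM, above the 3.82, 4.21 and 4.45 TPM of DMSO, and Msi1 had 20.0, 19.8 and 20.8 TPM, above 15.1, 16.9 and 16.3 TPM. Nes had 73.6, 66.9 and 71.9 TPM, above 56.6, 61.7 and 58.7 TPM. Sox1 had 0.991, 0.952 and 0.981 TPM, below 1.76, 1.70 and 1.88 TPM, and Pax6, at 1.37, 1.23 and 1.64 TPM against 1.37, 1.23 and 0.943 TPM, overlapped.

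The log2 differences were 0.54 for Olig2 (SE 0.083, adjusted p 0.000208 by limma), 0.32 for Msi1 (adjusted p 0.00117), 0.26 for Nes (adjusted p 0.000795), -0.63 for Sox1 (SE 0.113, adjusted p 0.000619) and 0.19 for Pax6 (adjusted p 0.281). Thus 3 of the 5 passed as higher, where 41.2% of genes did, and 1 as lower, where 12.8% did, and none reached 2-fold, where 3.82% of genes did. With libraries centred on their medians, which differed by 0.16 (0.14 in the median difference over all genes), Nes kept 0.10 (adjusted p 0.0206), Msi1 0.15 (adjusted p 0.0134), Olig2 0.37 (adjusted p 0.00187) and Sox1 -0.79 (adjusted p 0.000144 by limma).

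With Dox added to dTAG-13, the 4 genes that had moved overlapped their DMSO values. Most genes did so, since only 27.4% of the 16166 genes tested had no overlap with DMSO. Olig2 had 3.73, 4.03 and 4.02 TPM and Msi1 16.9, 16.6 and 18.7 TPM, while Nes had 59.7, 60.9 and 58.9 TPM, all 3 genes below the dTAG-13 libraries. Sox1 had 2.21, 2.10 and 1.80 TPM, above the dTAG-13 libraries. Between dTAG-13 with and without Dox, 58.8% of all genes tested had no overlap. Against dTAG-13 alone the differences were -0.61 for Olig2 (adjusted p 0.000109 by limma), -0.24 for Nes (adjusted p 0.00178), -0.21 for Msi1 (adjusted p 0.0165) and 0.78 for Sox1 (adjusted p 0.000165), with 29.3% of genes lower and 17.5% higher. Msi1 no longer passed without dTAG-13 replicate 3 (0.0612) or Dox replicate 1 (0.0639) or 2 (0.0710).

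Pax6 did not differ detectably between these groups (-0.04, 95% interval -0.35 to 0.28). Against DMSO none of the 5 passed in limma, where 0.0619% of genes did, and none of the 5 had an unadjusted p under 0.05. The intervals of that difference were -0.25 to 0.11 for Olig2, -0.09 to 0.13 for Nes, -0.03 to 0.24 for Msi1, -0.09 to 0.40 for Sox1 and -0.16 to 0.47 for Pax6. The comparisons of dTAG-13 with DMSO and with Dox share the dTAG-13 libraries, so their opposite signs are not independent. Pluripotency genes moved with the same libraries. Their summed level was 1200 to 1235 TPM with dTAG-13, 2369 to 2733 TPM in DMSO and 2639 to 2683 TPM with Dox. With dTAG-13 7 of 10 were called lower, where 1.44% of all genes were, and their part was not tested.

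The 24 h response of each of the 5 genes differed between the lines. The effect in the shERV line minus that in the time course was -1.11 for Olig2 (SE 0.180, adjusted p 3.17e-05 by limma), -0.80 for Msi1 (adjusted p 1.89e-07), 0.82 for Nes (adjusted p 3.79e-08), 0.68 for Pax6 (adjusted p 0.00409) and -0.58 for Sox1 (adjusted p 0.000217). Olig2 and Msi1 rose in both lines but less in the shERV line. Nes fell in the time course and rose in the shERV line, and Sox1 was lower in the shERV line and stood at -0.05 in the time course. With libraries centred, which takes off the -0.13 that library medians add to this difference, Olig2 stood at -0.99. All 5 passed this test, where 52.9% of 18626 genes did, and 1, Olig2, exceeded 2-fold, where 6.46% were called lower. The Pax6 difference was 0.48 without the shallow 24 h replicate 1. The line cannot be told apart from the library type. Nor can it be told apart from the time label of DMSO, 24 h in the shERV line and 0 h in the time course.

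**Figure D4:**
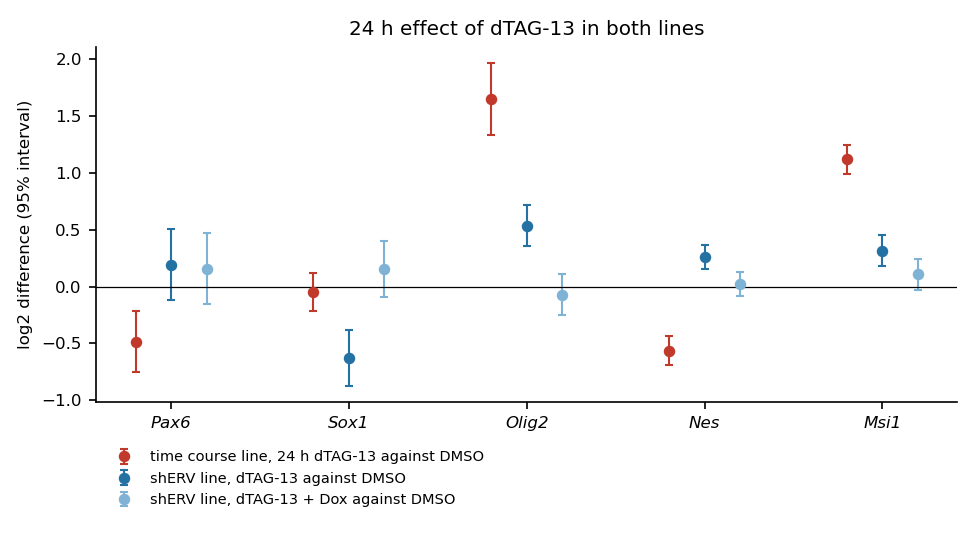
Log2 difference from DMSO, with its 95% interval, of the 5 genes tested, after 24 h of dTAG-13 in the time course and, in the shERV line, with dTAG-13 and with dTAG-13 and Dox (3 libraries a group). The intervals with Dox include 0 for all 5 genes, and the estimates for Nes and Pax6 lie on opposite sides of 0 in the 2 lines.

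In ChIP-seq, peaks within 1 kb of the gene start were read from the list deposited for each library, with the fold enrichment given by the peak caller. MED23, a Mediator subunit, was listed in both DMSO libraries at 7 of the 9 genes, all but Fabp7 and Dcx, where 32.9% of all genes and 73.9% of the genes tested in the time course had such a peak. The enrichment was highest at Sox1, 19.3-fold and 18.8-fold, and lowest at Olig2, 4.69-fold and 3.32-fold. Hes5 (9.54-fold and 9.63-fold) and Neurog2 (7.32-fold and 8.72-fold), whose RNA was under 1 TPM, had MED23 peaks, as had Nes (9.17-fold and 7.74-fold), Msi1 (8.20-fold and 7.01-fold) and Pax6 (7.42-fold and 4.54-fold), whose RNA was measurable.

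Of these 7 genes, Sox1 alone still had a MED23 peak in the libraries after 24 h of dTAG-13, 3.71-fold and 3.75-fold enriched. The lists are shorter as a whole there, with 15335 and 14551 peaks against 63045 and 58925, and 9.81% of all genes with a peak against 32.9%, so the loss at these genes cannot be told apart from the shorter lists. Olig2 and Msi1, whose RNA was higher at 24 h, were among the genes without a listed MED23 peak.

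RNAPII was listed at Sox1 (4.79-fold and 4.19-fold) and Nes (8.58-fold and 8.10-fold) in both DMSO libraries, that is at 2 of the 9 genes, where 20.9% of all genes had a peak. At 24 h it was listed at Nes in 1 of 2 libraries (4.03-fold), where 11.2% of genes had a peak, in lists of 8182 and 7689 peaks against 19853 and 19194. Of the genes tested in the time course, 54.19% and 54.35% had an RNAPII peak in DMSO and 30.89% and 28.2% at 24 h. H3K27Ac was found within 1 kb only at Nes, in DMSO replicates 2 and 3 (2.79-fold and 2.30-fold) and in 24 h replicate 2 (3.43-fold), where 27.9% and 21.3% of genes had a peak. Among the genes tested in the time course, 63.43% to 66.15% had an H3K27Ac peak in DMSO and 43.36% to 67.49% at 24 h. The nearest H3K27Ac peak of Hes5 lay 3106 to 3229 bases from its start in all 6 libraries. H3K9me3, the mark deposited through TRIM28, was at none of the 9 starts in any of 6 libraries, where 7.36% of all genes had a peak in DMSO and 4.90% at 24 h. In DMSO the nearest H3K9me3 peak of Olig2 lay 5821, 6998 and 6839 bases from its start. At 24 h it lay 1228356, 26492 and 25458 bases away. Those of Hes5, Nes, Msi1 and Neurog2 also lay farther in every 24 h library than in any DMSO library. For Neurog2 the gap was small in replicate 3 (108121 against at most 107856 bases). Those of Pax6 and Sox1 lay farther in 24 h replicates 1 and 2 and nearer in replicate 3. That of Fabp7 stayed at 11759 to 12808 bases, and that of Dcx lay nearer in replicates 2 and 3. The lists held 104579 to 126470 peaks in DMSO and 11474, 105690 and 147611 at 24 h. Whether these distances bear on the RNA was not tested.

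**Figure D5:**
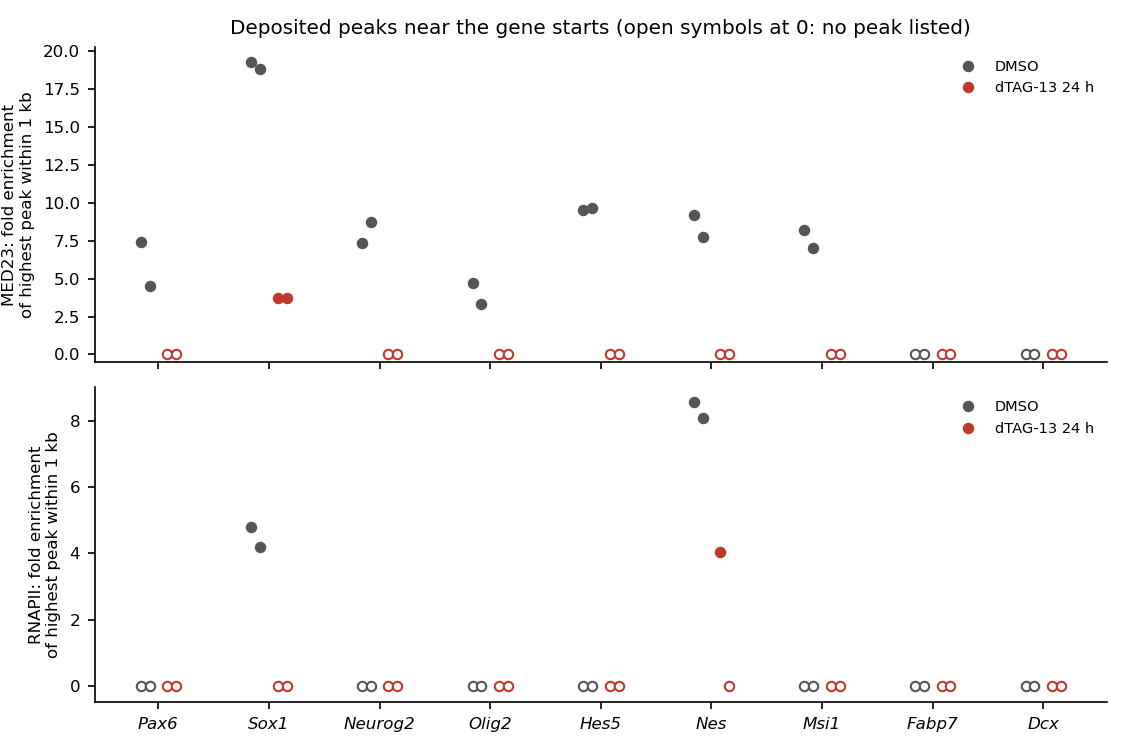
Fold enrichment of the highest MED23 (top) and RNAPII (bottom) peak within 1 kb of the start of each of the 9 genes, 1 point per library (2 in DMSO, 2 after 24 h of dTAG-13); open symbols at 0 mark libraries with no peak listed. MED23 is listed at 7 genes in DMSO and at Sox1 alone after 24 h.

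Of 30 other genes of neural progenitors 22 were tested in the time course. At 24 h 1 was called higher and 0 lower, where 10.1% and 2.01% of all genes were, the one being Olig1, the neighbour and paralogue of Olig2, from 3.95 to 14.7 TPM (1.77, SE 0.119, adjusted p 1.52e-08 by limma). At 96 h 10 were called higher and 6 lower, where 20.3% and 12.4% of all genes were, with Pax3, a factor of dorsal neural tube and neural crest, up by 3.97 to 10.9 TPM and Sox2, a factor of both pluripotent and neural cells, down from 204.6 to 20.9 TPM. The list had a median log2 difference of 0.71 at 96 h, against -0.31 for the 5 members tested and 0.05 for all genes. In NPCs 27 of 28 were called higher than in tagged mESCs, where 25.9% of all genes were, Zic1 by 8.56. Zic1, with means of 0.516 TPM in tagged and 0.0961 TPM in parental mESCs, entered this test only through its NPC values and had to differ. The same holds for any gene of the list under 1 TPM in mESCs, so this count is not independent support. Olig1 was also higher in parental mESCs, by 2.53 (25.2 against 3.95 TPM), as Olig2 was.

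Genes of the Notch pathway, to which Hes5 responds, were 15, all tested. At 24 h 9 passed as higher and 4 as lower, where 42.9% and 25.0% of all genes did. Notch3, a receptor, was the 1 of 15 called higher, where 10.1% of all genes were, from 30.2 to 86.5 TPM (1.50, adjusted p 3.31e-11 by limma). None was called lower, and Hes5 stayed under 0.4 TPM. At 96 h Notch3 was still higher, at 95.4 TPM, and the ligand gene Dll1 fell from 7.36 to 1.08 TPM, 1 of 4 called lower, where 12.4% of all genes were. In NPCs Dll1 had 115.5 TPM.

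Among 15 genes of neurons, 14 were tested and 2 were called lower and 0 higher at 24 h, where 2.01% and 10.1% of all genes were, led by Ina, the neurofilament protein internexin, from 63.9 to 25.9 TPM. At 96 h 6 were called lower and 2 higher, where 12.4% and 20.3% of all genes were. Their median log2 difference was -0.74, against 0.05 for all genes. Ina had the largest fall, to 4.06 TPM (-3.83), and Nefm, another neurofilament, the largest rise, from 5.05 to 41.6 TPM. In NPCs 11 of 15 were called higher than in tagged mESCs, where 25.9% of all genes were, and Map2 stood at 354.0 TPM. Here too a gene under 1 TPM in mESCs could enter the fit only through its NPC values. Of 10 genes of glia 5 were tested in the time course, and 0 were called at 24 h, where 12.2% of all genes were. At 96 h Mbp was called higher (21.7 against 3.00 TPM), where 20.3% of all genes were.

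As a description, over the 15 libraries of the time course Olig2 and Msi1 followed each other (Pearson r 0.918 on log2(TPM + 0.5)), as did Pax6 and Sox1 (0.834), and Nes ran against Olig2 (-0.851) and Msi1 (-0.829). These points share 5 treatment groups. The genes most like each member were Gin1 (0.972), Gm14230 (0.970) and Fancb (0.966) for Pax6 and Gm45752 (0.986), 1810009A15Rik (0.985) and 1110002L01Rik (0.984) for Sox1. For Nes they were Slc5a5 (0.987), Plcxd1 (0.973) and Brms1 (0.961), for Olig2 H2-Q6 (0.980), Gm4349 (0.977) and Per3 (0.976), and for Msi1 Rexo5 (0.989), Hif3a (0.985) and Abca2 (0.985).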

How the data were processed

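RNA-seq, TT-SLAM-seq and ChIP-seq files of the series were used as deposited. For RNA-seq the authors deposited StringTie (2.0.6) gene tables with TPM, scaled for length and depth, and with mean read coverage, a signal used here only to compare depth (STAR 2.7.5a, cutadapt 2.4, per the submitters' processing notes). For TT-SLAM-seq the authors counted reads with T-to-C conversions per gene and deposited FPKM. For ChIP-seq the authors deposited a peak list per library with fold enrichment and -log10 q-values of the peak caller (MACS2 is named, settings not given in the sources used here), without spike-in scaling.

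The 9 members and all gene lists were chosen with earlier results of these data known. limma 3.58.1 (R 4.3.3, eBayes with trend) was run on log2(value + 0.5) of TPM or FPKM, over genes with at least 1 TPM or 0.5 FPKM in at least 3 libraries, with Benjamini-Hochberg adjustment over all genes tested. Fits held the time course, TT-SLAM-seq, the shERV line, the parental, tagged and NPC libraries, or, for the difference between lines, the time course and shERV line together. The fits of the time course and of the lines share the tagged DMSO libraries. "Passed" means an adjusted p below 0.05, and "called" or "changed" that and more than 2-fold. The script was tested on simulated data. Alternatives were pseudocounts of 0.1 and 1, no filter or a mean of at least 5, centring, a replicate block, voom on recovered reads, leaving out libraries, and for peaks 5 kb or the 10000 highest. A change of sign counted as one only where either value passed. Named were all members, genes with the largest rise or fall in a list, and the 3 genes most like each member. One result of the glial list is not reported here.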

Additional observations from a re-analysis of the deposited data

Results flagged for a closer look

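All 5 members tested in both lines differed in their 24 h response to dTAG-13 between the 2 lines, shERV and time course, by an interaction term in limma (3 libraries a group). The effect in the shERV line minus that in the time course was 0.68 for Pax6, -0.58 for Sox1, 0.82 for Nes, -1.11 for Olig2 and -0.80 for Msi1. With libraries centred the Olig2 value was -0.99. Over all genes tested 52.9% passed this test. The lines also differ in library type and in the time label of DMSO (24 h against 0 h), which cannot be told apart from the line.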

How the results depend on the processing

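Of the values of single members, 970 kept their call, 8 were called only in the alternative, 5 no longer were and 1 turned: Msi1 at 96 h was -0.21 with libraries centred. The 970 include values whose adjusted p crossed 0.05 with no change of call, such as nascent Nes at 24 h in 10 of 12 alternatives. They also include changes of sign where neither value passed, such as nascent Sox1 at 24 h (0.20, and -0.04 with libraries centred). Of the counts of members, 385 held and 29 moved. Members called higher were 1 instead of 0 at 2 h and at 24 h of TT-SLAM-seq with voom on recovered reads and 2 at 24 h with a pseudocount of 0.1. At 24 h of RNA-seq they were 1 instead of 2 with a mean of at least 5 (Olig2 was not tested) and with libraries centred (Msi1 at 0.83). Members called lower at 96 h were 2 instead of 1 with a pseudocount of 0.1, with centring or without 96 h replicate 2 (range over left-out libraries 1 to 2), Pax6 then being past 2-fold, and 0 with a mean of at least 5. From 24 h to 96 h, 1 instead of 3 was lower with a mean of at least 5. In parental mESCs 2 instead of 1 were higher with a pseudocount of 0.1 (Hes5 at 1.26). Without any 1 NPC library 5 instead of 9 were higher in NPCs, against tagged (range 5 to 9) and parental mESCs (range 5 to 9), since the filter needs 3 libraries. For the difference between lines, 0 instead of 1 were lower with a mean of at least 5 or centring. Olig2 in NPCs against parental mESCs was under 2-fold with a pseudocount of 1 (0.997), without parental replicate 3 (0.99) and centred (0.43).

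Within 5 kb, members with a peak (mean over libraries) were 2 for H3K27Ac in DMSO (0.667 within 1 kb) and 2 at 24 h (0.333), 0.333 for H3K9me3 in DMSO (0), 3 for MED23 at 24 h (1), 3 for RNAPII in DMSO (2) and 1.5 at 24 h (0.5). Among the 10000 highest peaks they were 0 for H3K27Ac in DMSO, 1 for MED23 in DMSO (7), 0 at 24 h, and 1 for RNAPII in DMSO.

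Replicate numbers were shared by the groups, but same-numbered samples did not deviate together (median correlations of -0.0016 to 0.0256 over the fits, above 0.1 in 3 of 18 pairs in TT-SLAM-seq and 1 of 30 in the time course), so they share only a number. With a replicate block no count of members changed, and 3 single results crossed an adjusted p of 0.05: nascent Nes at 24 h (0.0542), Neurog2 in parental mESCs (0.0546) and Olig2 at 96 h (0.0223). Depth limits Olig2 and Sox1 in TT-SLAM-seq, on as few as 5 and 15 reads. Hes5, Neurog2, Dcx and Fabp7 stayed under 1 TPM in all mESC RNA-seq libraries. No floor could be given there, so small changes in these genes are uncertain.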
